A study of Homo sapiens with 60 samples.

Results

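The 37 genes described here encode the glucose and lactate transporters, the enzymes of glycolysis, the enzymes that decide the fate of pyruvate and the enzymes of the pentose phosphate pathway. They were taken by gene name, as the rows whose Ensembl identifier maps to the listed symbols, and all 37 were found among the 60675 identifiers of the deposited table. SW1783 is an established human astrocytoma cell line, and each culture had one treatment for 24 h before RNA was sequenced. The groups were the water extracts of Schisandrae Fructus, Polygalae Radix, Aucklandiae Radix, Liriopis seu Ophiopogonis Tuber, Longan Arillus and Zizyphi Semen at a low, a medium and a high dose, then wortmannin at 10 µM, an inhibitor of phosphoinositide 3-kinase, and a vehicle of DMSO. The doses were 20, 100 and 500 µg/mL, except for Polygalae, which was given at 10, 50 and 250 µg/mL. The design text says that an extract too toxic for the common top dose was used at its own toxicity limit and at dilutions of that. The sample labels give the vehicle as 0.1% DMSO, and the series text gives another percentage. Each of the 20 groups had 3 libraries, 60 in all, of 1 cell line grown in Leibovitz's L-15 medium. The labels do not say that replicate libraries are separate cultures. In the main fit each p-value sets a difference against a spread between replicate libraries, estimated over all 20 groups. That spread may be technical.

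Glycolysis splits glucose into pyruvate. Its early steps spend ATP and are paced by hexokinase and phosphofructokinase, and its later steps, from aldolase to pyruvate kinase, return ATP and are run by abundant enzymes. Pyruvate is then either reduced to lactate by lactate dehydrogenase and exported, or carried into mitochondria and oxidised by pyruvate dehydrogenase, which the PDK kinases switch off. The pentose phosphate pathway branches off after hexokinase and supplies NADPH and ribose. Glioma cells, and astrocytes, are known for a high rate of lactate production. Standard L-15 medium is formulated with galactose and pyruvate in place of glucose.

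Library totals ran from 9.34 to 35.35 M (mega) counts with a median of 25.71 M, and the lowest, a low-dose Liriopis library, was followed by 18.64 M. SLC1A3, SOX9 and GJA1 of the astrocyte markers were present, at vehicle means of 30.9, 79.4 and 198.6 CPM (counts scaled to a common library total), as were the mesenchymal glioma markers VIM and CD44 at 4687 and 2757 CPM. The astrocyte markers GFAP, S100B, AQP4, ALDH1L1 and SLC1A2 had vehicle means under 1 CPM, from 0 for AQP4 to 0.39 for SLC1A2. EPCAM, CDH1, CD3E and LYZ, which define epithelial cells and leukocytes, peaked at 0.147 CPM in any library. Other markers on those lists were present, with vehicle means of 120.6 CPM for KRT18 and 14.9 CPM for KRT8, both keratins, and 9.88 CPM for the leukocyte marker PTPRC. Of the neuronal markers, TUBB3, SNAP25 and SYT1 had vehicle means of 101.9, 27.4 and 24.5 CPM. RBFOX3 and STMN2 of the same list were near 0, with vehicle means of 0.109 and 0.0356 CPM. One high-dose Liriopis library stood apart from its group, with a mean correlation to the other libraries of its group of 0.945, against at least 0.984 in the other groups. The 5 library sets that the library names show put vehicle and wortmannin each in a set of its own, so every difference from vehicle cannot be told apart from a difference between sets. A high dose and a low dose of the same herb always lay in the same set, and these pairs carry the main comparisons.

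In vehicle cells the 37 genes took 1.92% of library totals scaled by normalisation factors, with sums of 19951, 18809 and 18742 CPM. Scaled by transcript length, GAPDH was the most abundant at 3234 CPM per kilobase, followed by ENO1 at 1528, PKM at 1470, ALDOA at 1023 and LDHA at 980.6. On that scale the 3 vehicle libraries ran from 1475 to 1634 for ENO1 and from 1459 to 1492 for PKM, so these neighbours overlapped, as did ALDOA (983.4 to 1071) and LDHA (947.9 to 1022). Before scaling by length, PKM at 3379 CPM lay above ENO1 at 2723 CPM and LDHA at 1791 CPM above ALDOA at 1585 CPM, without overlap. PFKFB2 came last at 2.78 CPM per kilobase, after ALDOC at 4.29. All 37 genes passed the filter on low counts and were tested among 17792 genes. A gene is called here when edgeR's quasi-likelihood test gave a Benjamini-Hochberg adjusted p under 0.05 over all genes tested in that comparison, and all fold changes are log2.

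**Figure D1:**
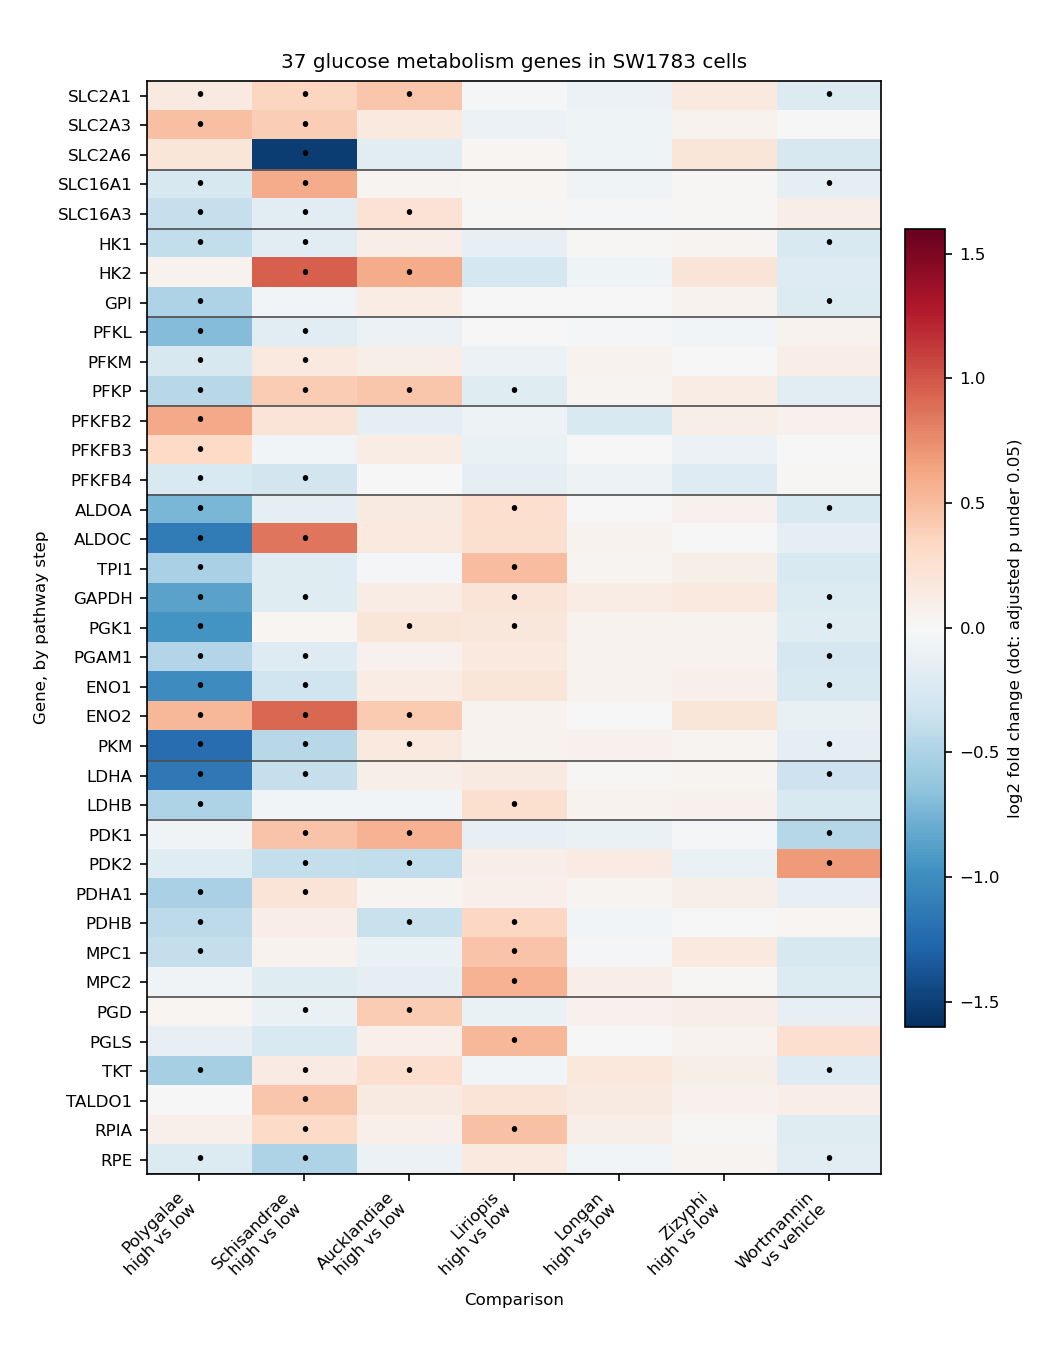
Log2 fold change of each of the 37 genes (rows, ordered by pathway step, lines between steps) in high over low dose for the 6 herbs and in wortmannin over vehicle (columns), on a colour scale that ends at 1.6 on both sides. Dots mark adjusted p under 0.05. Polygalae has 28 dots, of which 23 mark lower genes, Schisandrae has 26 and Aucklandiae 12.

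At the high dose of Polygalae, the root of a Polygala plant, most transcripts of the later part of glycolysis and both lactate dehydrogenases were lower than at the low dose. Against the low dose, 28 of the 37 genes were called, 5 higher and 23 lower, where 36.2% of all genes tested were called, 17.9% higher and 18.3% lower. The median over the 37 genes was −0.37, against 0.01 over all genes tested. By step, 8 of the 9 genes from aldolase to pyruvate kinase fell and 1 rose, with a median of −0.86. Both lactate dehydrogenases, all 3 phosphofructokinases, both lactate transporters, 2 of 3 genes of the upper steps, 3 of 6 of mitochondrial pyruvate use and 2 of 6 of the pentose phosphate pathway also fell. In these bulk libraries fewer cells with a transcript and less of it per cell cannot be told apart.

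The promoters of the 3 genes that fell most and of ENO2, one of those that rose most, are shown because these genes moved together or apart at the same dose. PFKFB2, the other, is not shown. The sequences are RefSeq windows of GRCh38.p14, 250 bases before to 50 after the annotated start, read 5′ to 3′ on the gene's strand. Capitals mark ACGTG on either strand, letters found in the core of the hypoxia-inducible factor site and, on both strands at once, in the E-box CACGTG.
PKM, chr15:72231141-72231440, minus strand: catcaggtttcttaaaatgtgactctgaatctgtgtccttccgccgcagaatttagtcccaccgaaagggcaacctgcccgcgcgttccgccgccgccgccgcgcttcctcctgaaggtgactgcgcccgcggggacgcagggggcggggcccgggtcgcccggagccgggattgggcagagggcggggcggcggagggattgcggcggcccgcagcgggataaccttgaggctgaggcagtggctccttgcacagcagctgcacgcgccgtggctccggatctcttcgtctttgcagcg
LDHA, chr11:18394313-18394612, plus strand: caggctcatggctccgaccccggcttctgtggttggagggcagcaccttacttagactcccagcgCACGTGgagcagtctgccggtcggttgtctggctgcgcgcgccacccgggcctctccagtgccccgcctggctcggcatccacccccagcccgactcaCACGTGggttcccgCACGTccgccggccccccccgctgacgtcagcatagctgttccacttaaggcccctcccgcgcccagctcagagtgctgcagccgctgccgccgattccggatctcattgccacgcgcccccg
ALDOC, chr17:28576846-28577145, minus strand: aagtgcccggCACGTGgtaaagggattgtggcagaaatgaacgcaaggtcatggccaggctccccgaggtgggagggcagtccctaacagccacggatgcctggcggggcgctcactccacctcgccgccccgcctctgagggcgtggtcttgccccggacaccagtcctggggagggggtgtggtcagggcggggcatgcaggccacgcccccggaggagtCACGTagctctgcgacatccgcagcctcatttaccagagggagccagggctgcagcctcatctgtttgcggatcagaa
ENO2, chr12:6914330-6914629, plus strand: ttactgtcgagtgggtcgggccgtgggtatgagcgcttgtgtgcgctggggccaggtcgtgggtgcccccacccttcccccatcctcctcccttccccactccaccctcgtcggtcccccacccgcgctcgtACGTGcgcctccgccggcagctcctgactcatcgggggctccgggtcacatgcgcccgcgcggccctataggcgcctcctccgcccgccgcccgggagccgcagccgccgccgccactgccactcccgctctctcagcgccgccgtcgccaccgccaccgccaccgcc
The LDHA window has 5 matches in 3 runs of capitals, the ALDOC window 3 matches in 2 runs and the ENO2 window 1 match, while the PKM window has 0. A second LDHA window of the same table, chr11:18396101-18396400, also has 0. Of the 34 genes with an entry, 17 (50.0%) had a match in at least one window, against 24.9% of 27305 genes in the table. Per window the shares were 32.8% of 64 windows, against 21.4% of 35116. Among the 34, a match was held by 11 of the 22 genes lower in high-dose Polygalae (50.0%), by 2 of the 3 higher (66.7%) and by 4 of the 9 with no call (44.4%).

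PKM, the pyruvate kinase of most dividing cells (chromosome 15, 72199029 to 72231822, minus strand, GENCODE 29 on GRCh38), had 1257, 1320 and 1230 CPM at the high dose, against 3043, 2846 and 2958 CPM at the low dose. The 3 high-dose libraries lay far below every low-dose library, at −1.22 (SE 0.04, adjusted p = 3.2e-27). LDHA, which reduces pyruvate to lactate (chromosome 11, 18394388 to 18408425, plus strand), had 669.8, 668.2 and 661.7 CPM at the high dose, against 1563, 1346 and 1516 CPM at the low dose. The groups did not overlap, at −1.15 (SE 0.06, adjusted p = 2e-21). ENO1, the main enolase (chromosome 1, 8861000 to 8879250, minus strand), had 1235, 1262 and 1294 CPM at the high dose, against 2565, 2557 and 2528 CPM at the low dose. Again no library overlapped, at −1.01 (SE 0.07, adjusted p = 1.1e-15). ALDOC, the aldolase of the brain (chromosome 17, 28573115 to 28577264, minus strand), was scarce and had 2.37, 2.79 and 2.25 CPM at the high dose, against 5.27, 4.93 and 5.9 CPM at the low dose. It fell by 1.12 (SE 0.12, adjusted p = 1.1e-10), without overlap.

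The other genes of the later steps fell as well. PGK1, which makes the first ATP of the pathway, averaged 381.3 ± 19.6 CPM at the high dose and 742.6 ± 4.9 CPM at the low dose (SD, n = 3 each), a change of −0.96. GAPDH averaged 2050 ± 19.4 CPM at the high dose and 3731 ± 251 CPM at the low dose, a change of −0.86. ALDOA, the main aldolase, changed by −0.73, TPI1, triosephosphate isomerase, by −0.52 and PGAM1, the mutase before enolase, by −0.47. LDHB, the lactate dehydrogenase that favours making pyruvate, fell by 0.5, less than LDHA. SLC16A3, the lactate exporter of glycolytic cells, fell by 0.37 and SLC16A1, which moves lactate either way, by 0.26.

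Summed over the 37 genes, high-dose Polygalae libraries had 10089, 10273 and 10205 CPM, or 1.02% of totals scaled by the normalisation factors. Low-dose libraries had 17828, 16948 and 17609 CPM, or 1.75% of such scaled totals. The 9 genes from aldolase to pyruvate kinase and the 2 lactate dehydrogenases made up most of the sum. Their means were 16009 CPM in vehicle and 14365, 12399 and 7604 CPM at the low, medium and high doses. The change was related to abundance: over the 37 genes, the log2 level in vehicle and the log2 change correlated at Pearson's r = −0.63 and Spearman's rho = −0.63. With the other herbs r over the 37 genes ran from −0.25 with Schisandrae to 0.37 with Longan, where 0 of the 37 were called. For Polygalae over 17754 tested genes, r and rho were −0.11 and −0.15. These are descriptions across genes, which share libraries and are not independent replicates.

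**Figure D2:**
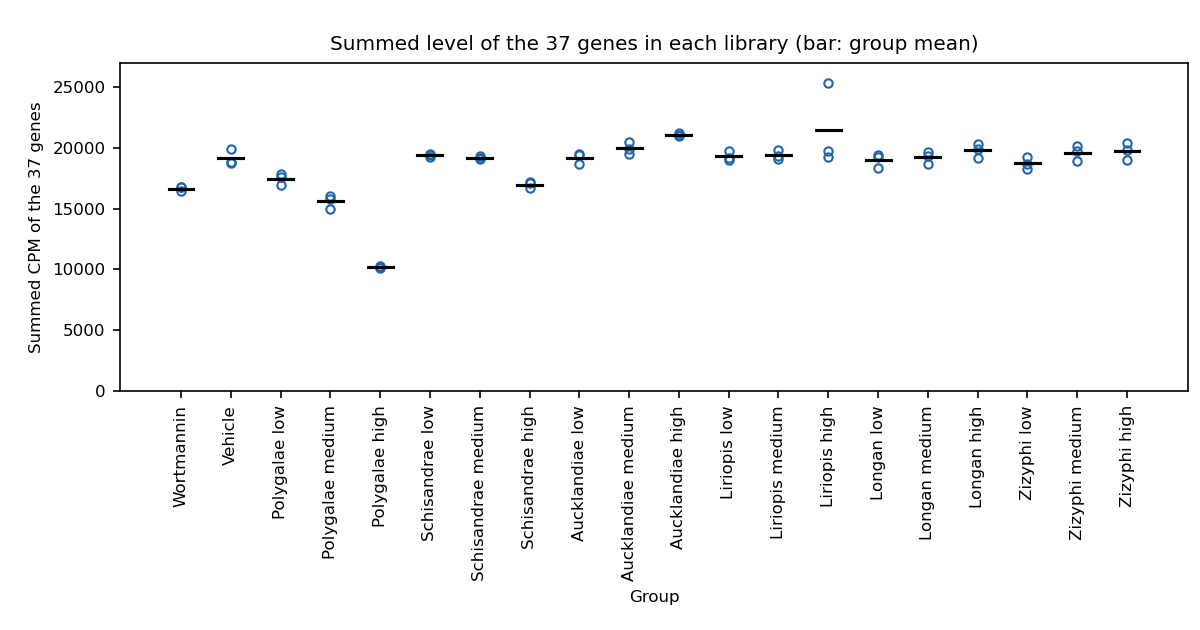
Summed CPM of the 37 genes in each library (points), in wortmannin, vehicle and each herb at its low, medium and high dose. High-dose Polygalae libraries sit between 10089 and 10273 CPM, below every other library, and 1 high-dose Liriopis library reaches 25363 CPM.

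The 5 genes that rose at the high dose of Polygalae were PFKFB2, ENO2, SLC2A3, PFKFB3 and SLC2A1. PFKFB2, which makes the activator of phosphofructokinase (chromosome 1, 207034366 to 207081024, plus strand), had 39.4, 36.0 and 34.0 CPM at the high dose, against 24.8, 25.4 and 21.8 CPM at the low dose. The groups were separate, at 0.61 (SE 0.13, adjusted p = 0.00014). YOD1, a gene on the opposite strand of the same locus, rose too, by 0.44 (SE 0.11, adjusted p = 0.00082). Opposite-strand genes had 84.8% of the PFKFB2 count at the median library, and with no strand setting given in the sources used here the reads of the 2 genes cannot be told apart. ENO2, the enolase of neurons (chromosome 12, 6913745 to 6923698, plus strand), had 114.1, 123.8 and 131.6 CPM at the high dose, against 87.0, 82.4 and 86.5 CPM at the low dose. It rose by 0.53 (SE 0.05, adjusted p = 3.9e-11), without overlap.

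SLC2A3, a high-affinity glucose transporter (chromosome 12, 7919230 to 7936275, minus strand), had 72.8, 71.1 and 69.2 CPM at the high dose, against 52.5, 50.8 and 49.2 CPM at the low dose. Every high-dose library was above every low-dose one, at 0.48 (SE 0.07, adjusted p = 1e-07). PFKFB3, another maker of the phosphofructokinase activator, had 112.3, 108.8 and 109.6 CPM at the high dose, against 84.7, 92.8 and 86.8 CPM at the low dose, and rose by 0.32 (SE 0.07, adjusted p = 0.0001). SLC2A1, the basal glucose transporter, rose by 0.14 (adjusted p = 0.024). That call was lost without high-dose replicate 2 or 3 or low-dose replicate 1 or 2. HK2, the inducible hexokinase, was not called (0.06, SE 0.1, adjusted p = 0.69), with 55.5, 53.5 and 57.8 CPM at the high dose, against 53.3, 54.7 and 51.8 CPM at the low dose.

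Phosphofructokinase commits sugar to glycolysis. PFKL, its liver-type subunit, changed by −0.7, PFKP, the platelet type, by −0.44 and PFKM, the muscle type, by −0.26. HK1, the constitutive hexokinase, changed by −0.4 and GPI, the isomerase after it, by −0.5. PDHA1 and PDHB, subunits of pyruvate dehydrogenase, changed by −0.52 and −0.42, and MPC1 of the mitochondrial pyruvate carrier by −0.38. PFKFB4, a further enzyme of the same family as PFKFB2, changed by −0.24. In the pentose phosphate pathway TKT, transketolase, changed by −0.53 and RPE, the ribulose phosphate epimerase, by −0.22, both lower. PGD, PGLS, TALDO1 and RPIA, together with SLC2A6, PDK1, PDK2 and MPC2, were not called, with changes from −0.19 to 0.19. The call of MPC1 was lost without replicate 1 or 2 of either dose, and that of PFKFB4 without high-dose replicate 1 or low-dose replicate 2.

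**Figure D3:**
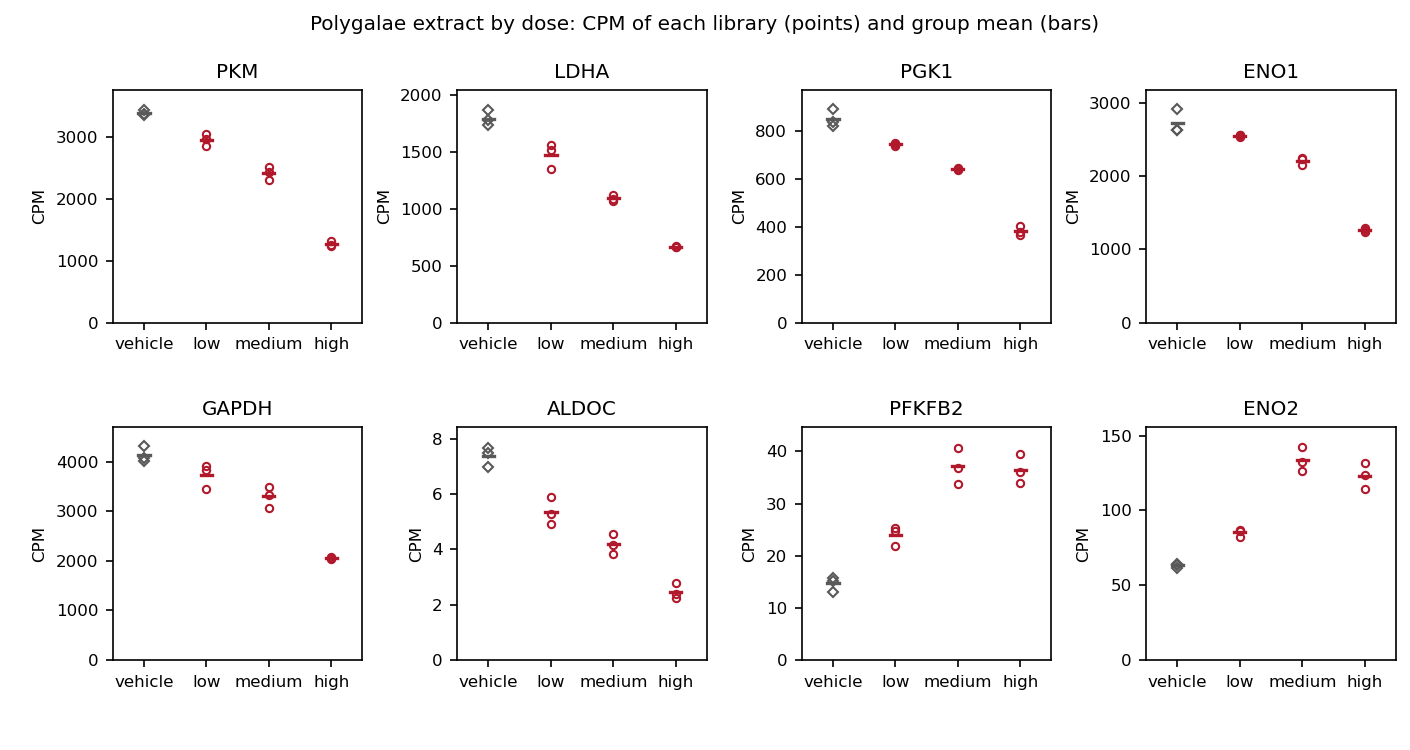
CPM of 8 genes in the 3 vehicle libraries and the 3 libraries each of the low, medium and high dose of Polygalae (points). PKM, LDHA, PGK1, ENO1, GAPDH and ALDOC are lowest at the high dose, while PFKFB2 and ENO2 are higher at the medium and high doses than in vehicle.

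The dose series showed where the genes changed. Between the low, medium and high doses 12 genes were separated at each step with no overlap of libraries. The share of all genes tested that were so separated was not counted. PFKL, ALDOA, ALDOC, TPI1, PGK1, PGAM1, ENO1, PKM, LDHA, PDHB and MPC1 stepped down and PFKFB3 stepped up. PKM averaged 3379 ± 42.6 CPM in vehicle, 2949 ± 98.5 CPM at the low dose, 2415 ± 108.7 CPM at the medium dose and 1269 ± 46.2 CPM at the high dose. LDHA averaged 1791 ± 68.6 CPM in vehicle, 1475 ± 114 CPM at the low dose, 1091 ± 23.1 CPM at the medium dose and 666.6 ± 4.31 CPM at the high dose (SD, n = 3 each). ENO2 and PFKFB2 had another course. ENO2 averaged 63.2, 85.3, 133.7 and 123.2 CPM in vehicle and at the low, medium and high doses, and PFKFB2 averaged 14.7, 24.0, 37.1 and 36.4 CPM. HK1, PFKM and TKT had their highest mean at the medium dose, and PFKM was higher than vehicle there (0.26, adjusted p = 2.7e-05).

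Against vehicle, 11 of the 37 genes were called at the low dose of Polygalae (4 higher, 7 lower), where 6.46% of all genes were (3.01% higher, 3.46% lower), and 7 were called without vehicle replicate 3. At the medium dose 23 were called (8 higher, 15 lower) against 30.1% of all genes (15.2% higher, 14.9% lower). At the high dose 31 were called (6 higher, 25 lower) against 46.1% (23.1% higher, 22.9% lower). With libraries scaled by their totals alone the splits were 5 higher and 3 lower, 10 and 9, and 9 and 21. The shares of all genes just given are from the fit with normalisation factors and do not apply to these splits. The high-dose libraries also differed as libraries: mitochondrial transcripts took 12.42 to 13.37% of counts, against 7.79 to 12.06% in every other group, and normalisation factors were 1.084 to 1.117, against 0.918 to 1.051. Without those factors the median of all genes moved to 0.18 for high dose against vehicle and 0.11 for high against low dose, where 27 of the 37 genes were called, 7 higher and 20 lower. PFKM at the high dose against vehicle was −0.12 with the factors and 0.05 without them, so its direction turns with the scaling.

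Several marker lists were lower in the same libraries. Summed epithelial markers had 45.6 to 48.1 CPM at the high dose and 116 to 119 CPM at the low dose, with 3 of 3 tested lower and EPCAM and CDH1 near 0. Leukocyte markers had 1.84 to 2.2 CPM at the high dose and 7.66 to 8.12 CPM at the low dose, with 1 of 2 tested lower. Neuronal markers had 75.9 to 81.2 CPM and 131 to 137 CPM, with 3 of 4 tested lower. Mesenchymal glioma markers, which these cells express, had 4530 to 4750 CPM and 7490 to 7580 CPM, with 3 of 4 lower. Astrocyte markers had 311 to 330 CPM at the high dose and 292 to 299 CPM at the low dose. All marker sums here are over library totals without normalisation factors. Those factors were 1.084 to 1.117 at the high dose and 1.0 to 1.051 at the low dose, so the direction of the astrocyte sum is uncertain. Tested with the factors, 1 of 4 astrocyte markers, SLC1A3, was lower (−0.7), and their median change was 0.02. The part of the markers and of mitochondrial content in the changes of the 37 genes was not tested.

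High-dose Schisandrae, the fruit of the magnolia vine, moved genes of the pathway in both directions and shifted the shares of several isozymes. Against the low dose 26 of the 37 genes were called, 13 higher and 13 lower, where 49.7% of all genes were called, 25% higher and 24.8% lower. The median was −0.04. Genes that rose included HK2, ENO2, ALDOC and SLC16A1, and genes that fell included SLC2A6, RPE, PKM and PDK2. Glucose transporters gave 2 higher and 1 lower, phosphofructokinases 2 and 1, the later steps 2 and 4, and the pentose phosphate genes 3 and 2.

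HK2, the inducible hexokinase bound to mitochondria (chromosome 2, 74833981 to 74893359, plus strand), had 113.4, 114.8 and 108.5 CPM at the high dose of Schisandrae, against 56.2, 59.0 and 59.1 CPM at the low dose. The groups were far apart, at 0.95 (SE 0.1, adjusted p = 4.4e-11). ENO2 had 132.7, 124.3 and 127.7 CPM at the high dose, against 69.8, 66.1 and 67.0 CPM at the low dose. It rose by 0.92 without overlap (SE 0.05, adjusted p = 4.7e-19). ALDOC had 14.5, 13.6 and 14.3 CPM at the high dose, against 8.52, 7.28 and 7.47 CPM at the low dose. Its libraries were separate too, at 0.86 (SE 0.1, adjusted p = 2.7e-10). SLC16A1 had 209.1, 210.8 and 196.7 CPM at the high dose, against 138.6, 136.1 and 135.6 CPM at the low dose, and rose by 0.59 (SE 0.04, adjusted p = 2.6e-15).

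SLC2A6, a transporter found on internal membranes (chromosome 9, 133471095 to 133479137, minus strand), had 7.2, 7.78 and 6.55 CPM at the high dose of Schisandrae, against 19.8, 20.7 and 21.2 CPM at the low dose. This was the largest change of the 37 genes with this herb, at −1.52 (SE 0.11, adjusted p = 8.5e-16). RPE had 24.0, 23.4 and 24.0 CPM at the high dose, against 33.8, 33.6 and 32.9 CPM at the low dose, a change of −0.49 (SE 0.05, adjusted p = 2.5e-10). PKM had 2521, 2496 and 2427 CPM at the high dose, against 3319, 3450 and 3367 CPM at the low dose, a change of −0.45 (SE 0.04, adjusted p = 1.2e-12). Neither gene's groups overlapped. PDK2, a kinase that switches off pyruvate dehydrogenase, had 19.4, 15.0 and 16.2 CPM at the high dose, against 22.0, 19.7 and 24.4 CPM at the low dose, close but not overlapping, at −0.38 (SE 0.09, adjusted p = 0.00028). SAMD14, on the strand opposite PDK2, changed by −0.7 (adjusted p = 0.0066), and opposite-strand genes had 14.1% of the PDK2 count.

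Among the other genes called with Schisandrae, PDK1 rose by 0.46, TALDO1, transaldolase, by 0.44, PFKP by 0.41, SLC2A3 by 0.39 and SLC2A1 by 0.34. RPIA, PDHA1, PFKM and TKT rose by 0.13 to 0.3, with the libraries of PFKM overlapping. LDHA fell by 0.37, ENO1 by 0.32 and PFKFB4 by 0.29. PGAM1, GAPDH, SLC16A3, PFKL, HK1 and PGD fell by 0.11 to 0.21. The calls of RPIA, TKT, PFKM, PFKL, PGD, HK1 and SLC16A3 were each lost without 1 or another single library of the 2 doses. The summed level was 17110, 17167 and 16661 CPM at the high dose, against 19262, 19431 and 19515 CPM at the low dose.

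HK2, PFKP, ALDOC, ENO2, PDK1, PDHA1 and TALDO1 stepped up from the low through the medium to the high dose of Schisandrae with no overlap at either step. SLC2A6 and PKM stepped down in the same way. Such steps were not counted over all genes tested. HK2 averaged 58.1 ± 1.66 CPM at the low dose, 64.8 ± 1.37 CPM at the medium dose and 112.2 ± 3.26 CPM at the high dose. SLC2A6 averaged 20.6 ± 0.705, 18.3 ± 0.611 and 7.18 ± 0.615 CPM (SD, n = 3 each), so most of each change lay between the medium and high doses. Against vehicle, 25 genes were called at the high dose (13 higher, 12 lower) where 50.9% of all genes were (25.3% higher, 25.6% lower). At the medium dose 2 were called, ALDOC (0.41, adjusted p = 0.024) and ENO2 (0.23, adjusted p = 0.017), where 1.02% of all genes were (0.461% higher, 0.562% lower). That count was 0 without vehicle replicate 1, 2 or 3 and 6 without high-dose Liriopis replicate 1. At the low dose 0 were called by edgeR (0 at an unadjusted p under 0.05) and 0 by DESeq2, where 0% of all genes were.

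In the Schisandrae libraries, summed epithelial markers had 59.7 to 65.5 CPM at the high dose and 136 to 155 CPM at the low dose, with 1 of 3 tested lower. Neuronal markers had 74.4 to 83.6 CPM and 155 to 163 CPM, with 3 of 4 lower and 1 higher. Leukocyte markers had 2.32 to 2.65 CPM and 9.93 to 10.9 CPM, with 1 of 2 lower and 1 higher. Astrocyte markers had 227 to 241 CPM and 301 to 309 CPM, with 2 of 4 lower, and mesenchymal glioma markers 6860 to 6960 CPM and 7880 to 8160 CPM, with 3 of 4 lower. Their part in these changes was not tested.

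High-dose Aucklandiae, a root drug of the daisy family, moved 12 of the 37 genes, 10 higher and 2 lower, against the low dose, where 10.6% of all genes were called, 5.32% higher and 5.3% lower. The 10 that rose were the basal glucose transporter, the inducible hexokinase, PFKP, 3 genes of the later steps, the lactate exporter, PDK1 and the pentose phosphate genes PGD and TKT. The 2 that fell, PDK2 and PDHB, both belong to mitochondrial pyruvate use. The median was 0.1. Without high-dose Liriopis replicate 1, which enters the shared estimate of spread, 19 of the 37 genes were called. The 10.6% above is not from that fit.

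HK2 had 85.6, 86.1 and 90.1 CPM at the high dose of Aucklandiae, against 54.2, 59.4 and 60.1 CPM at the low dose, a rise of 0.59 (SE 0.1, adjusted p = 2.1e-05). PDK1, the PDK kinase induced by low oxygen (chromosome 2, 172555373 to 172608669, plus strand), had 35.4, 35.7 and 40 CPM at the high dose, against 26.4, 22.6 and 26.6 CPM at the low dose. It rose by 0.55 (SE 0.08, adjusted p = 9.2e-07), and in both genes every high-dose library was the higher. SLC2A1 (chromosome 1, 42925375 to 42959176, minus strand) had 264.9, 266.0 and 262.7 CPM at the high dose, against 202.7, 186.7 and 195.9 CPM at the low dose. It rose by 0.44 (SE 0.05, adjusted p = 2.6e-09). PFKP (chromosome 10, 3066333 to 3137712, plus strand) had 261.4, 273.0 and 275.9 CPM at the high dose, against 198.3, 206.3 and 190.9 CPM at the low dose, a rise of 0.44 (SE 0.06, adjusted p = 5.5e-07). Neither pair of groups overlapped.

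PDK2 (chromosome 17, 50094737 to 50112152, plus strand) had 14.5, 15.8 and 13.1 CPM at the high dose of Aucklandiae, against 19.3, 19.9 and 18.4 CPM at the low dose. It changed by −0.4 (SE 0.09, adjusted p = 0.00098), without overlap, while SAMD14 on the other strand was not called (−0.48, adjusted p = 0.15). PDHB had 44.4, 41.4 and 42.8 CPM at the high dose, against 57.4, 53.1 and 54.0 CPM at the low dose, a change of −0.36 (SE 0.08, adjusted p = 0.0016). It too was separate in every library. ENO2 rose by 0.42, PGD, which yields NADPH, by 0.4, TKT by 0.27, SLC16A3 by 0.23, PGK1 by 0.19 and PKM by 0.16. The call of PKM was lost without low-dose replicate 3, and that of PGK1 without high-dose replicate 1 or 3 or low-dose replicate 2 or 3. PGD averaged 281.8 ± 7.58 CPM at the high dose and 213.9 ± 11.9 CPM at the low dose (SD, n = 3 each).

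SLC2A1, HK2, PFKP, PGK1, ENO2 and PDK1 stepped up through the 3 Aucklandiae doses without overlap, and PDHB stepped down. Here too the share of all genes tested with such steps was not counted. Against vehicle 13 genes were called at the high dose (12 higher, 1 lower), where 13.2% of all genes were (6.54% higher, 6.69% lower). At the medium dose 1 was called, PFKP (0.28), where 0.455% of all genes were (0.214% higher, 0.242% lower), and it was lost without vehicle replicate 2 or 3 or without medium-dose replicate 1 or 2, while 5 were called without high-dose Liriopis replicate 1. At the low dose 0 were called by edgeR and by DESeq2, where 0.00562% of all genes were, and 0 had an unadjusted p under 0.05. Summed over the 37 genes, high-dose libraries had 21198, 21085 and 20947 CPM and low-dose libraries 19541, 19428 and 18637 CPM. Epithelial markers had 101 to 105 CPM at the high dose and 133 to 147 CPM at the low dose, with 2 of 3 lower. Leukocyte markers had 4.98 to 5.25 and 9.06 to 10.3 CPM, with 1 of 2 lower. Astrocyte markers had the higher sum at the high dose, 322 to 328 against 286 to 310 CPM, with 0 of 4 called. So did mesenchymal glioma markers, at 8510 to 8660 against 7930 to 8140 CPM, with 0 of 4 called. Neuronal markers had 157 to 163 and 157 to 165 CPM, with 0 of 4 called. The part of these lists was not tested.

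**Figure D4:**
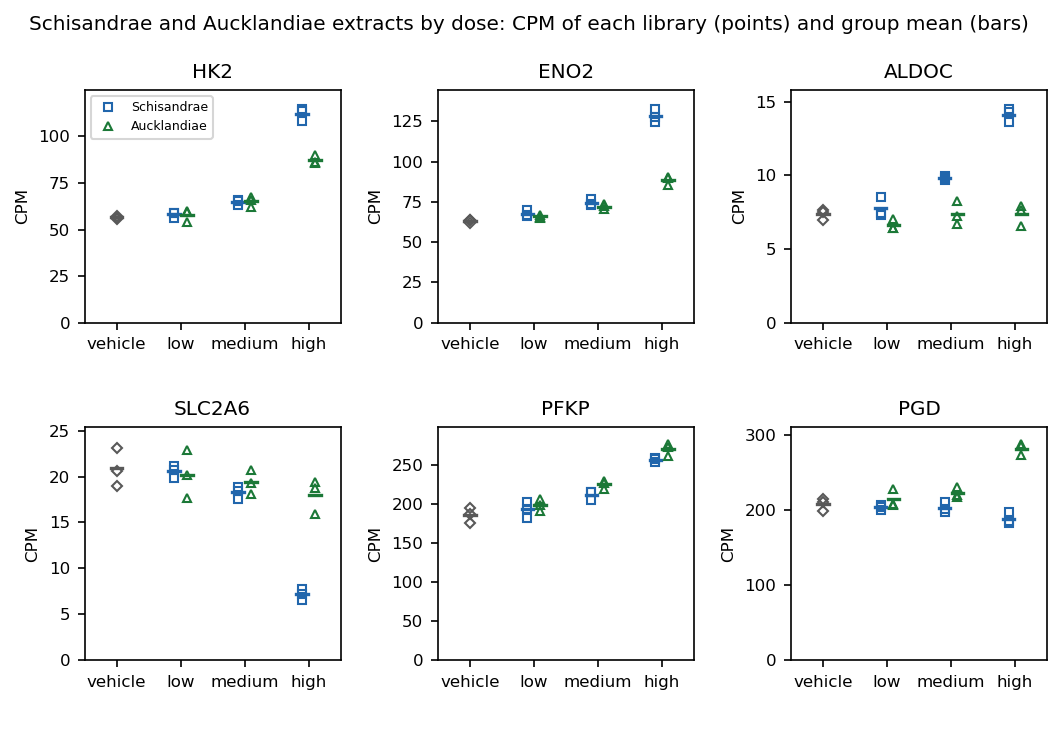
CPM of HK2, ENO2, ALDOC, SLC2A6, PFKP and PGD at the low, medium and high dose of Schisandrae (squares) and Aucklandiae (triangles), with vehicle as diamonds and 1 point per library. HK2 reaches 108.5 to 114.8 CPM with Schisandrae and 85.6 to 90.1 CPM with Aucklandiae, and SLC2A6 is low only at the high dose of Schisandrae among the groups drawn.

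The herbs' dose effects were tested against each other as the difference between their high-minus-low changes, which share no library. Polygalae minus Schisandrae was called for 27 of the 37 genes (3 higher, 24 lower), where 41% of all genes were called (20.3% higher, 20.7% lower). Polygalae minus Aucklandiae was called for 25 (2 higher, 23 lower), where 22.8% were (10.4% higher, 12.4% lower), with a median of −0.46. Schisandrae minus Aucklandiae was called for 18 (5 higher, 13 lower), where 32.6% were (15.8% higher, 16.8% lower). With libraries scaled by totals alone the splits were 6 higher and 20 lower, 6 and 21, and 4 and 12. The shares of all genes above do not apply to those splits. ALDOC differed most between Polygalae and Schisandrae, PKM between Polygalae and Aucklandiae, and SLC2A6 between Schisandrae and Aucklandiae. PFKP, which fell with Polygalae, did not differ detectably between Schisandrae and Aucklandiae (difference −0.03, SE 0.09, adjusted p = 0.81). The Polygalae doses were lower than those of the other herbs, so these are comparisons of dose ranges and not of equal doses.

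Isozyme shares, of length-scaled CPM, show the balance among the members of a family described so far, and not the make-up of a whole step. Further isozymes were left out of the shares. Among these is PDK4, which was higher at the high than at the low dose of Schisandrae. The PDK shares cover PDK1 and PDK2 only. Each length is the median over a gene's annotated protein-coding transcripts. It was 1520.5 bases for PFKL, 2654 for PFKP and 1575 for PFKFB4. The size of a share depends on these lengths, which may differ from those of the transcripts the cells make. HK2 made up 20.5 ± 0.115% of HK1 plus HK2 at the high dose of Schisandrae, against 10.6 ± 0.38% at the low dose. With Aucklandiae the HK2 share was 14% at the high dose and 10.4% at the low dose, and with Polygalae it was 12.6% and 9.51%, there with HK1 lower and HK2 not called. ENO2 made up 6.68 ± 0.303% of both enolases at the high dose of Polygalae, against 2.4 ± 0.0755% at the low dose, with ENO1 lower and ENO2 higher. With Schisandrae the ENO2 share was 4.0% at the high dose and 1.73% at the low dose.

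LDHB made up 27.8 ± 1.1% of both lactate dehydrogenases at the high dose of Polygalae, against 19.8 ± 0.761% at the low dose, since LDHA fell more. ALDOC made up 0.871% of ALDOA plus ALDOC at the high dose of Schisandrae and 0.434% at the low dose. With Polygalae it made up 0.258% and 0.337%, so nearly all counts of this pair in these groups were of ALDOA. PFKP made up 48.9% of the phosphofructokinases at the high dose of Schisandrae and 39.7% at the low dose, and 49.9% and 41.3% with Aucklandiae. PFKFB4 made up 19.5% of the 3 PFKFB genes at the high dose of Polygalae and 26.8% at the low dose, and PFKFB2 9.65% and 7.38%. SLC2A6 made up 2.21% of the 3 glucose transporters at the high dose of Schisandrae and 7.6% at the low dose, while SLC2A3 made up 13% and 10.6% with Polygalae. SLC16A1 made up 26.6% of the lactate transporters at the high dose of Schisandrae and 17.6% at the low dose. PDK2 made up 32% of PDK1 plus PDK2 at the high dose of Aucklandiae and 47.8% at the low dose, and 36.3% and 50.5% with Schisandrae.

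**Figure D5:**
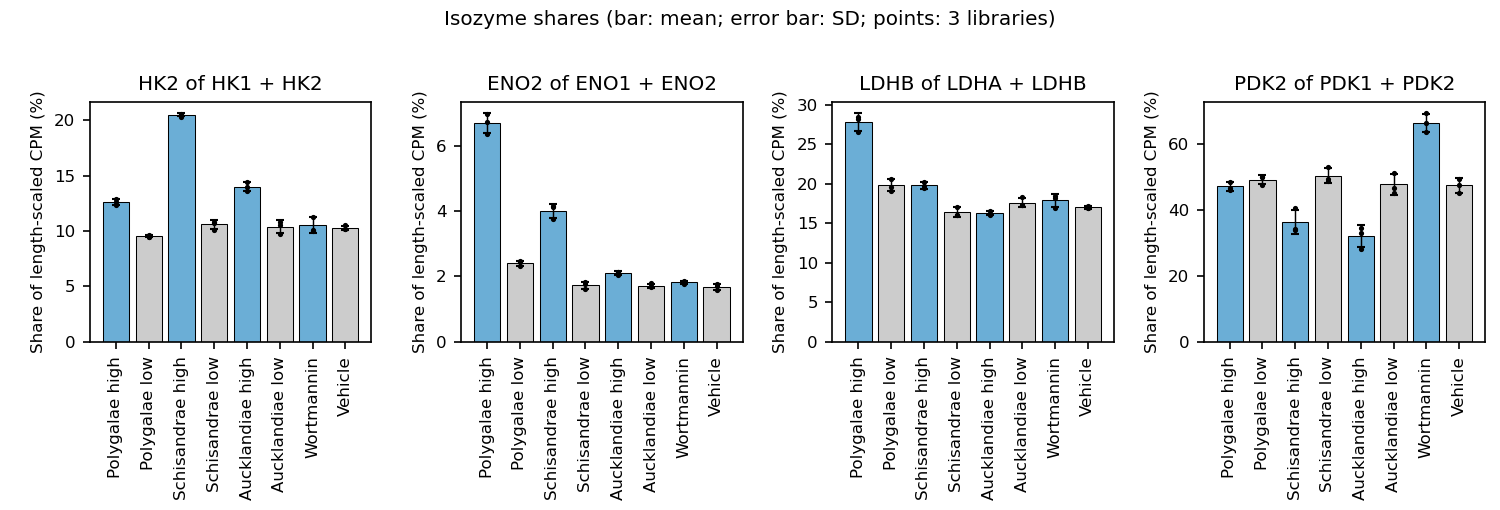
Share (percent of length-scaled CPM) of HK2 in HK1 plus HK2, ENO2 in both enolases, LDHB in both lactate dehydrogenases and PDK2 in PDK1 plus PDK2. Bars are means, error bars SDs and points the 3 libraries of each group. The HK2 share is highest with high-dose Schisandrae (20.5%), the ENO2 and LDHB shares with high-dose Polygalae (6.68% and 27.8%) and the PDK2 share with wortmannin (66.5%).

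Wortmannin blocks phosphoinositide 3-kinase, whose signalling is known to promote glucose uptake and glycolysis. With it 15 of the 37 genes were called against vehicle, 1 higher and 14 lower, where 12% of all genes were called (5.45% higher, 6.52% lower), and the median was −0.18. The changes were small next to those of high-dose Polygalae. The 1 gene that rose was PDK2, with 30.2, 32.7 and 35.8 CPM in wortmannin, against 21.3, 19.1 and 21.1 CPM in vehicle. Every wortmannin library was higher, at 0.68 (SE 0.08, adjusted p = 5.5e-08), and SAMD14 on the other strand was not called (0.22, adjusted p = 0.56). PDK1 went the other way, with 20.6, 19.8 and 18.9 CPM in wortmannin, against 26.0, 27.8 and 27.7 CPM in vehicle, at −0.46 (SE 0.08, adjusted p = 5.2e-05). PDK2 thus made up 66.5 ± 2.85% of the pair in wortmannin and 47.5 ± 2.17% in vehicle.

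LDHA had 1382, 1447 and 1456 CPM in wortmannin, against 1866, 1776 and 1731 CPM in vehicle, at −0.33 (SE 0.06, adjusted p = 4.3e-05). PGAM1 had 395.1, 394.6 and 405.3 CPM in wortmannin, against 507.6, 463.3 and 471.6 CPM in vehicle, at −0.27 (SE 0.06, adjusted p = 0.001). HK1 had 281.9, 293.7 and 294.1 CPM in wortmannin, against 348.2, 343.0 and 339.2 CPM in vehicle, at −0.24 (SE 0.05, adjusted p = 0.0012). None of these 3 genes had overlapping groups. ALDOA, ENO1, GAPDH, SLC2A1, GPI, TKT, PGK1, RPE, SLC16A1 and PKM fell by 0.14 to 0.24. Summed over the 37 genes, wortmannin libraries had 16417, 16743 and 16805 CPM, and vehicle libraries 19951, 18809 and 18742 CPM. The number of calls was 26 without high-dose Liriopis replicate 1 and 5 with no filter on low counts. With each treatment in its own library set, the sets and the drug cannot be told apart.

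The calls with Liriopis, a tuber drug, changed with the libraries left out, whether of the high dose, the low dose or vehicle. At the high against the low dose 11 genes were called (10 higher, 1 lower), where 16.1% of all genes were (11.8% higher, 4.27% lower). TPI1, MPC1, MPC2, PGLS and RPIA had the highest values, from 0.45 to 0.55. Of the 11, PDHB (0.33) and PFKP (−0.2) had groups that did not overlap. Summed levels were 25363, 19231 and 19775 CPM at the high dose, against 19724, 19180 and 18987 CPM at the low dose, so high-dose replicate 1 lay apart. Without it 0 genes were called. Without high-dose replicate 2 or 3 there were 22 and 21 calls, and without low-dose replicate 2 or 3 there were 0 and 3. Against vehicle 18 were called (14 higher, 4 lower), where 34% of all genes were (18.7% higher, 15.2% lower), 0 without high-dose replicate 1 and 9 without vehicle replicate 2 or 3. With libraries scaled by totals the splits were 5 higher and 2 lower, and 13 and 0, to which the shares above do not apply. At the medium and low doses 0 of the 37 were called against vehicle by edgeR or DESeq2, where 0.0112% and 0.00562% of all genes were. There were 0 and 2 of the 37 at an unadjusted p under 0.05, a threshold at which all genes were not counted.

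With Longan, the aril of the longan fruit, and Zizyphi, jujube seed, edgeR called 0 of the 37 genes at the high against the low dose, where 0.247% and 0.674% of all genes were called. At an unadjusted p under 0.05 there were 1 and 5 of the 37, and DESeq2 called 0 and 1. No count over all genes was made at the unadjusted threshold. The shares in this paragraph, at adjusted p, are thus no yardstick for those counts. Against vehicle at the high dose edgeR called 0 and 0, where 0.843% and 0.607% of all genes were called. There were 6 and 4 of the 37 at an unadjusted p under 0.05. DESeq2 called 2 with Longan and 0 with Zizyphi. Without high-dose Liriopis replicate 1, edgeR called 1 and 2 genes at the high against the low dose and 4 and 2 against vehicle, and 1 with Longan against vehicle without high-dose Longan replicate 2. At the medium doses 0 were called by either tool, where 0.0281% and 0.0393% of all genes were, with 0 and 0 at an unadjusted p under 0.05. At the low doses 0 were called by either tool, where 0.00562% and 0% of all genes were, with 0 and 1 at an unadjusted p under 0.05.

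The other genes around the pathway were read from lists of known members. These lists were chosen with earlier results of these data known, so their counts are descriptions and not independent tests. Of 25 tested genes of the same steps, such as further isozymes and regulators, 3 rose and 8 fell at the high against the low dose of Polygalae, 11 rose and 4 fell with Schisandrae and 1 rose and 1 fell with Aucklandiae. That is 44%, 60% and 8% of the list, against 36.2%, 49.7% and 10.6% of all genes called in these comparisons. PDK4, another pyruvate dehydrogenase kinase, averaged 6.24 CPM at the high dose of Schisandrae and 0.692 CPM at the low dose (3.15, SE 0.33, adjusted p = 3.6e-11). Of 15 genes that branch off glycolysis to glycogen, serine, hexosamines and polyols, 13 fell and 0 rose with Polygalae, where 18.3% of all genes fell and 17.9% rose. PYGL and PYGB, which release sugar from glycogen, changed by −1.01 and −0.93. With Schisandrae 5 rose and 7 fell, where 25% and 24.8% of all genes did, with Aucklandiae 3 and 2, where 5.32% and 5.3% did, and with wortmannin against vehicle 1 and 5, where 5.45% and 6.52% did.

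Of 13 citric acid cycle genes, 11 (84.6%) fell and 0 rose with Polygalae, where 36.2% of all genes were called. CS, citrate synthase, was at −0.67. With Schisandrae 3 rose and 3 fell, 46.2% of the list against 49.7% of all genes, and with Aucklandiae 0 and 2, or 15.4% against 10.6%. Of 13 targets of hypoxia-inducible factor outside glycolysis, 9 (69.2%) rose and 0 fell with Aucklandiae, where 10.6% of all genes were called, led by NDRG1 (0.86) and VEGFA (0.73). With Schisandrae 6 rose and 2 fell (61.5%), with NDRG1 at 1.67, and with Polygalae 5 rose and 5 fell (76.9%), with NDRG1 at 0.48 and P4HA1, a collagen hydroxylase, at −0.84. Of 5 genes of glucose sensing, all 5 rose with Schisandrae, where 25% of all genes rose, with ARRDC4 at 2.61. On that list 3 rose and 0 fell with Aucklandiae (60%) and 1 rose and 1 fell with Polygalae (40%). The shares of all genes called there were 10.6% and 36.2%. With Longan TXNIP and ARRDC4 rose while 0 of the 37 genes did, where 0.247% of all genes were called. TXNIP, which holds back glucose uptake, had 60.6, 61.2 and 55.7 CPM at the high dose of Longan, against 9.38, 10.8 and 8.41 CPM at the low dose. Of 7 regulators, 2 rose and 0 fell with Polygalae (28.6%), 4 rose and 1 fell with Schisandrae (71.4%) and 1 rose and 1 fell with Aucklandiae (28.6%), against 36.2%, 49.7% and 10.6% of all genes. MYC rose with all 3 herbs, by 0.36 with Polygalae, 0.81 with Schisandrae and 0.36 with Aucklandiae.

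Of the 37 genes, 22 overlap a gene on the opposite strand and in 7 that partner had over 10% of the gene's own count. These are PFKM, MPC2, PFKFB2, SLC16A3, RPE, PDK2 and SLC16A1. Processed copies elsewhere in the genome number 119 for 17 of the genes. Only SLC2A3 had copies above 1% of its own count, at a median of 1.56%, and reads shared with such copies are uncertain.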

How the data were processed

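The authors deposited one table of expected counts, estimated read counts per gene, for 60 libraries, and 11.02% of its values are not whole. Per the submitters' processing notes, the genome build was GRCh38, and the tools were RSEM 1.3.3, STAR 2.7.3a, FastQC 0.11.9 and Trim Galore 0.6.5. Per the labels, the kit was directional. The strand setting of the counting is not given in the sources used here.

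Expected counts were rounded and tested with edgeR 4.0.16 (limma 3.58.1, R 4.3.3): one quasi-likelihood fit of all 20 groups, TMM factors, filterByExpr with a minimum count of 10, 17792 genes tested, 40 residual degrees of freedom and Benjamini-Hochberg adjustment at 0.05 within each comparison. The code was tested on simulated data. CPM are counts over TMM-scaled totals, except for the cell markers, where the totals had no factors. Lengths are GENCODE 29 medians. Groups came from the sample labels.

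The 37 genes, the other lists and the rules for naming genes were chosen with earlier results of these data known. Values per library are given for the 4 largest rises and falls per herb among called genes without overlap and with at least 5 CPM, and for the same in wortmannin. Lack of overlap in the genes so picked follows from the choice and adds no support. Where 3 falls tied for the last place in wortmannin, HK1 was taken. Interactions name the 6 largest differences. Of the other lists, at most 3 genes per comparison are named, by smallest p. Alternatives were DESeq2 1.42.0, its size factors, totals without factors, no filter, fits of the compared libraries alone, a replicate block and each replicate left out.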

Additional observations from a re-analysis of the deposited data

Results flagged for a closer look

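The results below were singled out because the dose effects of 2 herbs differed by a direct test, the difference between their high-minus-low changes in one edgeR fit. Values are differences of log2 changes.

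Polygalae minus Schisandrae was called for 27 genes. ALDOC, which was lower at the high dose of Polygalae and higher at that of Schisandrae, had −1.98 (SE 0.15, adjusted p = 8.3e-15). SLC2A6 had 1.71 (SE 0.15, adjusted p = 4.6e-13), as it fell with Schisandrae and was not called with Polygalae. PGK1 had −0.99, HK2 −0.89, PFKP −0.85 and SLC16A1 −0.85.

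Polygalae minus Aucklandiae was called for 25 genes. PKM had −1.37 (SE 0.06, adjusted p = 3.9e-23), with falls in Polygalae and a small rise in Aucklandiae. ALDOC had −1.27, LDHA −1.24, PGK1 −1.15, ENO1 −1.13 and GAPDH −0.98.

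Schisandrae minus Aucklandiae was called for 18 genes. SLC2A6 had −1.35 (SE 0.15, adjusted p = 8.8e-10). ALDOC had 0.71, PKM −0.6, SLC16A1 0.55, PGD −0.51 and ENO2 0.5. PGD was higher with Aucklandiae and slightly lower with Schisandrae.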

How the results depend on the processing

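Of 286 single-gene calls, DESeq2's Wald test kept 285, its size factors 284, a replicate block 283, the compared libraries alone 254, totals without factors 246 and no filter on low counts 223, with the same direction. Counts of called genes moved by over 1.5 times as follows. With totals alone they were 1 for high-dose Longan against vehicle, 0 for medium-dose Aucklandiae and 7 for Liriopis high against low. With no filter they were 5 for wortmannin, 11 for high-dose Liriopis, 0 for medium-dose Schisandrae, 0 for medium-dose Aucklandiae, 5 for low-dose Polygalae and 7 for Liriopis high against low. In fits of the compared libraries alone they were 26 for wortmannin, 0 for high-dose Liriopis, 4 for medium-dose Schisandrae and 0 for Liriopis high against low. With DESeq2's Wald test they were 2 for high-dose Longan, 2 for medium-dose Aucklandiae, 17 for Liriopis high against low and 1 for Zizyphi high against low. The cause was not tested. Shares of all genes called are given in this text for the main fit only. Counts under other settings have no such share beside them.

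Leaving out 1 library at a time gave these lowest and highest counts against vehicle: wortmannin 10 and 26, Liriopis high 0 and 23, Schisandrae high 21 and 29, medium 0 and 6, Longan high 0 and 4, Zizyphi high 0 and 2, Polygalae high 27 and 32, medium 19 and 29, low 7 and 16, Aucklandiae high 9 and 18, medium 0 and 5. For high against low dose they were 0 and 22 in Liriopis, 21 and 30 in Schisandrae, 0 and 1 in Longan, 0 and 2 in Zizyphi, 25 and 28 in Polygalae and 10 and 19 in Aucklandiae. Between herbs they were 25 and 32, 24 and 28, and 14 and 27. The largest counts came mostly without high-dose Liriopis replicate 1. Without that library MPC1 in high-dose Liriopis reversed to −0.02 against vehicle (up to 0.66 without another library) and −0.04 against the low dose (up to 0.65), and LDHB against the low dose to −0.002 (up to 0.37). PFKM in high-dose Polygalae against vehicle reversed to 0.05 with totals alone.

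Replicate numbers did not pair the libraries: no comparison had all 3 same-numbered correlations over 0.1, and the highest was 0.22. With the replicate number as a block, Polygalae high against low had 28 calls, Schisandrae 26, Aucklandiae 12, wortmannin 16, high-dose Polygalae 30 and Liriopis high against low 12. No count moved by over 1.5 times under the block. The vehicle libraries are shared by every comparison against vehicle.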
